A study of Mus musculus with 12 samples.

Results

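The acyl-CoA thioesterases are enzymes that split acyl-CoA into a free fatty acid and coenzyme A (CoA), and 8 of their genes were taken from the liver transcriptome of mice after chronic exercise. The genes Acot1, Acot2, Acot3, Acot4, Acot7, Acot8, Acot12 and Acot13 were picked out by their symbols among 16821 genes listed for each mouse. The set was chosen with earlier results of these data known. The adult C57BL/6J males of the Exe group, 8 weeks old when purchased, were trained by moderate treadmill running for 6 weeks, on 5 days per week and for 60 min per day. The males of the Con group, of the same strain and age, stayed sedentary in the same room. No genetic change or drug is named for either group. Bulk RNA of the perfused liver, collected within 24 h of the last run, gave a library for each of 6 Con and 6 Exe mice. The authors used principal component analysis to screen for outliers, and whether mice were left out is not given in the sources used here.

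Fatty acids enter metabolism as acyl-CoA, and thioesterases run that activation backwards, so they set free CoA where it is scarce. The enzymes fall into a pair of families that share the reaction but not the fold. The type I enzymes carry an alpha/beta hydrolase domain, and each works in its own compartment: ACOT1 in the cytosol, ACOT2 in mitochondria, and ACOT3 and ACOT4 in peroxisomes. The type II enzymes carry hotdog domains. ACOT7 hydrolyses long-chain acyl-CoA in the cytosol, ACOT8 is a peroxisomal enzyme with a broad range of substrates that include bile acid CoA esters, ACOT12 is a cytosolic acetyl-CoA hydrolase of the liver, and ACOT13 is found with mitochondria. In mouse liver the type I genes are known to be induced by fasting and by ligands of PPARA, the nuclear receptor that senses fatty acids.

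The type I genes sit side by side on chromosome 12, in the order Acot2, Acot1, Acot4, Acot3, followed by Acot5 and Acot6, whereas Acot7 is on chromosome 4, Acot8 on chromosome 2, and Acot12 and Acot13 on chromosome 13 (mouse gene annotation GENCODE M21, build GRCm38). Their coding sequences are close copies, which bears on how well short reads can tell them apart. Acot1 and Acot2 were identical at 95.7% of 1236 aligned coding bases, Acot1 and Acot3 at 86.1%, and Acot3 and Acot4 at 80.1%. In an alignment of all 4, 824 of 1236 columns without a gap held the same base in each gene. The stretch of 60 bases that was identical in all 4 genes is shown first. A read that covers it can be told apart only by its bases on either side or by the other read of its pair.

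Acot1, Acot2, Acot3 and Acot4: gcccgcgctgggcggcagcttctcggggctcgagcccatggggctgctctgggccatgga

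It runs from coding base 195 to 254 of Acot1. The stretch of 60 bases that differed most, from base 771 to 830 of Acot1, is shown next. Capitals mark bases that differ from Acot1, which number 3 in Acot2, 27 in Acot3 and 37 in Acot4.

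Acot1: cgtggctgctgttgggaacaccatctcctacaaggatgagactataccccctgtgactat
Acot2: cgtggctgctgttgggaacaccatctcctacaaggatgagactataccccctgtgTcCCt
Acot3: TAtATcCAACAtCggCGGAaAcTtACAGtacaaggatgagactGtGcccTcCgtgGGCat
Acot4: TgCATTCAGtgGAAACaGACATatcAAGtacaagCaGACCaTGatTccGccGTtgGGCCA

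Of all stretches of 150 bases, the read length, in the transcript of Acot1, 9.85% occurred unchanged in Acot2. In all, 12.4% of the stretches of Acot1, 10.2% of Acot2, 13.5% of Acot3 and 7.73% of Acot4 recurred in a transcript of another gene. For Acot8 the share was 9.47%, and for Acot7, Acot12 and Acot13 it was 0%. The mate of a paired read was not taken into account in these shares. Acot3 and Acot4 overlap the exons of a read-through gene, Gm49366, and of the antisense gene 4732463B04Rik, Acot8 overlaps Snx21 on the opposite strand, and Acot12 overlaps the antisense gene 4833422C13Rik. How the authors' counting treated shared reads and strand is not given in the sources used here, so the split of the signal between these genes is uncertain, above all between Acot1 and Acot2.

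The promoters of the type I genes are shown because these genes are known PPARA targets and varied together. Each is the 250 bases before the transcription start in RefSeq (build GRCm38.p6). Capitals mark 4 motifs searched on either strand: the CCAAT box, the GC box (GGGCGG), the TATA motif (TATAAA) and AGGTCA, the letters that nuclear receptors are known to bind.

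Acot1, chr12:84009252-84009501, + strand: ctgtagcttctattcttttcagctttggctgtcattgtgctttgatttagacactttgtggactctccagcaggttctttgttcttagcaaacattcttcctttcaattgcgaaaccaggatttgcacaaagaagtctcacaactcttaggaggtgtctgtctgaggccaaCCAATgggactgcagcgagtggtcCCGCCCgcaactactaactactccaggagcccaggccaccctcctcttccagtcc
Acot2, chr12:83987611-83987860, + strand: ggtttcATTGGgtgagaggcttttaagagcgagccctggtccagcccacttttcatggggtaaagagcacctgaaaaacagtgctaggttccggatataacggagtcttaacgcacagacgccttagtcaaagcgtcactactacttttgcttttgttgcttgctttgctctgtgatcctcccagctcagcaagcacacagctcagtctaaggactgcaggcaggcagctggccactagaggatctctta
Acot3, chr12:84051894-84052143, + strand: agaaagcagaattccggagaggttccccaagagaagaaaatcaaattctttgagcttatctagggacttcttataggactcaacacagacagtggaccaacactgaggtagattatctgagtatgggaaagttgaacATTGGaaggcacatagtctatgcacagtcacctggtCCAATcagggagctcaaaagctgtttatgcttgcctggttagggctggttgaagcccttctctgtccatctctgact
Acot4, chr12:84038129-84038378, + strand: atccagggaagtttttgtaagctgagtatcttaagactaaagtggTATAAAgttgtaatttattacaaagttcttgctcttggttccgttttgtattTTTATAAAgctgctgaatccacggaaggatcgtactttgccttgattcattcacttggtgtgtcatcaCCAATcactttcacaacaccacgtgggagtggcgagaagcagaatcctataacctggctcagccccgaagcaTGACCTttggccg

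RefSeq promoters were matched for 7 of the 8 members, all but Acot13. A CCAAT box was present in all 4 type I promoters and in that of Acot8, against 34.5% of 27025 mouse promoters of the same length. The GC box was found for Acot1, Acot7, Acot8 and Acot12 (32.9% of all promoters), the TATA motif for Acot4 (13%), and AGGTCA for Acot4 and Acot12 (13.8%). In Acot4 a pair of TATA matches on opposite strands overlap. A direct repeat of AGGTCA with 1 base between the copies, the form that PPARA is known to bind, was in 0 of the 7 windows and in 0.037% of all promoters. With AGGNCA for each copy it was again in 0 of 7 windows and in 0.333% of all promoters. None of these counts says whether a factor binds there.

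The values are FPKM, the number of sequenced fragments for each kilobase of a transcript relative to all mapped fragments. Division by length lets levels be set side by side between genes. Shared reads and gene models that are not given limit such comparisons, also the order and shares of the members below. Summed over genes, the libraries held from 735200 to 820107 FPKM. The depth in reads is unknown, but the relative depth of the mice, read from the steps between the lowest values of 78 genes, lay between 0.987 and 1.02. All 8 hepatocyte markers examined, Alb among them, had a mean of at least 1 FPKM, with summed levels between 53409 and 71262 FPKM in Con and between 62287 and 77855 FPKM in Exe. Of 14 marker lists compared between groups, 3 had a higher sum in Exe at an unadjusted p under 0.05: hepatocytes (exact permutation p = 0.039), B and T cells (2.33 to 4.79 FPKM in Con, 3.63 to 7.29 in Exe, exact permutation p = 0.039) and pancreatic acinar cells (8.51 to 17.0 FPKM in Con, 13 to 30.38 in Exe, exact permutation p = 0.0368). Adjusted over the 14 lists their p was 0.182 each by exact permutation, and their part in the values of the Acot genes was not tested. A mean of at least 1 FPKM was reached by 2 of the 6 B and T cell markers found and by 2 of the 8 acinar markers. In bulk tissue, fewer cells of a type and less RNA per cell cannot be told apart. Con 1 and Exe 5 had the highest sums over 12 acute-phase genes in their groups, 46283 and 48524 FPKM, against a median of 24468 in Con and of 14895 in Exe.

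Acot13 was the most abundant member and alone made up 47.3% ± 4.2 (SD, n = 6) of the summed FPKM of the 8 genes in Con and 46.3% ± 1.5 in Exe. The order of mean levels was Acot13, Acot12, Acot8, Acot7, Acot1, Acot4, Acot2 and Acot3. Neighbours in this order were compared within mice by exact two-sided sign-flip permutation tests on log2(FPKM + 1), with adjustment over 7 comparisons. Acot8 and Acot7 did not differ beyond their spread (adjusted p = 0.189, Acot8 higher in 9 of 12 mice). Acot7 exceeded Acot1 in 10 of 12 mice (adjusted p = 0.00798) and Acot2 exceeded Acot3 in 11 of 12 (adjusted p = 0.00205). In the other 4 comparisons the order was the same in 12 of 12 mice (adjusted p = 0.000855). The 4 type I genes together gave 14.6 ± 4.54 FPKM (SD, n = 6) in Con and 19.9 ± 8.14 FPKM in Exe, or 10.4% ± 2.67 and 13.2% ± 3.56 of the members' sum.

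Among the type I genes, Acot1 was the most abundant. Acot1 FPKM was 3.36, 7.16, 8.11, 12.82, 10.80 and 6.63 in Con 1 to Con 6 (median 7.64). In Exe 1 to Exe 6 it was 9.58, 14.50, 6.79, 10.80, 6.40 and 20.59 (median 10.2). The groups overlapped between 6.40 and 12.82 FPKM: Con 1 was the lowest and Exe 6 the highest of all mice, 6.13 times apart, and only Exe 2 and Exe 6 lay above every Con mouse. The means were 8.15 ± 3.32 FPKM in Con and 11.4 ± 5.37 in Exe (SD, n = 6), a ratio of 1.41. The log2 fold change was 0.43 ± 0.29 (SE), with a 95% interval from -0.20 to 1.06 and an adjusted p of 0.900 with limma, and without Con 1 it was 0.23. The interval reaches from a ratio of FPKM + 1 of 0.871 to one of 2.08, so neither a small decrease nor a doubling of Acot1 was left out at this number of mice.

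Acot2, whose product acts in the mitochondrial matrix, was lower and rose and fell with Acot1 from mouse to mouse. Acot2 FPKM was 0.84, 1.27, 1.30, 1.52, 1.38 and 1.03 in Con 1 to Con 6 (median 1.29). The Exe mice, in the same order, had 1.32, 1.63, 0.85, 1.19, 1.11 and 2.41 (median 1.26). The lowest mouse of the 12 was Con 1 and the highest Exe 6, as for Acot1, but the Exe median was below the Con median. The means of 1.22 ± 0.25 and 1.42 ± 0.55 FPKM (SD, n = 6) differed by a log2 fold change of 0.10 ± 0.13 (SE, adjusted p = 0.947 with limma), and without Exe 6 the value was -0.004. The ratio of Acot1 to Acot2 in a mouse ranged from 4.0 in Con 1 to 9.08 in Exe 4.

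Acot3, a peroxisomal enzyme for medium- to long-chain acyl-CoA, was the least abundant member and had the widest relative spread. Acot3 FPKM was 0.10, 0.50, 0.70, 0.38, 1.11 and 0.18 in Con 1 to Con 6 (median 0.44). In Exe 1 to Exe 6 it was 0.56, 2.16, 0.15, 0.76, 0.75 and 1.72 (median 0.76). The highest mouse, Exe 2, was at 21.6 times the lowest, Con 1, and 5 of 6 Exe mice were above the Con median, yet Exe 3 was below 5 of the Con mice. Acot3 reached 1 FPKM in 3 mice and so stayed below the expression filter of at least 1 FPKM in at least 6 of 12 mice. The difference in mean log2(FPKM + 1) was 0.38, with p = 0.173 in an exact two-sided permutation test, whose smallest p is 0.00217. With a pseudocount of 0.1 in place of 1 the difference was 0.83, which shows how far the scale compresses so low a gene.

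Acot4, the peroxisomal enzyme known for succinyl-CoA and other dicarboxylic acyl-CoA, followed Acot3. Acot4 FPKM was 3.0, 4.90, 5.86, 4.36, 5.85 and 4.18 in Con 1 to Con 6 (median 4.63). Values of the Exe mice were 4.48, 8.64, 3.23, 5.99, 6.31 and 7.72 (median 6.15). Here 4 of 6 Exe mice were above every Con mouse, while Exe 1 and Exe 3 lay within the Con range. The log2 fold change was 0.28 ± 0.19 (SE, 95% interval from -0.12 to 0.69, adjusted p = 0.899 with limma), from 4.69 ± 1.09 to 6.06 ± 2.0 FPKM (SD, n = 6). Without Con 1 and Exe 5, the mice with the highest acute-phase sums, it was 0.16. With Con 1 alone left out it was 0.19, and with Exe 5 alone left out 0.26.

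The type II genes varied far less. Acot7 FPKM was 11.86, 13.03, 11.55, 12.60, 13.27 and 14.31 in Con 1 to Con 6 (median 12.8). In Exe 1 to Exe 6 it was 14.39, 16.35, 12.93, 14.14, 11.18 and 14.29 (median 14.2). The lowest and the highest of all mice, Exe 5 and Exe 2, were both in the Exe group, and 5 of 6 Exe mice were above the Con median. The means were 12.8 ± 1.0 and 13.9 ± 1.72 FPKM (SD, n = 6), a log2 fold change of 0.11 ± 0.08 (SE, adjusted p = 0.917 with limma).

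Acot8 FPKM was 13.81, 16.49, 12.17, 14.45, 13.98 and 12.14 in Con 1 to Con 6 (median 13.9). Exe 1 to Exe 6 had 14.40, 14.45, 14.70, 13.13, 12.35 and 15.52 (median 14.4). All Exe mice were within the Con range. The log2 fold change of 0.03 ± 0.08 (SE, 95% interval from -0.14 to 0.19) had an adjusted p of 0.975 with limma.

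Acot12, the acetyl-CoA hydrolase, was the only member with a lower mean in Exe. Acot12 FPKM was 26.74, 29.64, 38.44, 32.58, 33.95 and 30.41 in Con 1 to Con 6 (median 31.5). In Exe 1 to Exe 6 it was 30.50, 35.10, 29.06, 33.10, 25.32 and 33.56 (median 31.8). The Exe median was above the Con median while the mean was below it, and Con 3 was the highest mouse and Exe 5 the lowest. The log2 fold change was -0.04 ± 0.09 (SE, adjusted p = 0.969 with limma) and changed sign to 0.02 without Con 3 or without Exe 5.

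Acot13 FPKM was 67.62, 55.70, 56.16, 73.12, 73.20 and 68.18 in Con 1 to Con 6 (median 67.9). Among the Exe mice it was 63.18, 77.21, 62.85, 74.15, 52.88 and 78.28 (median 68.7). Exe 2, Exe 4 and Exe 6 lay above every Con mouse and Exe 5 below every one, so the groups overlapped with a wider range in Exe. The means of 65.7 ± 7.90 and 68.1 ± 10.1 FPKM (SD, n = 6) gave a log2 fold change of 0.05 ± 0.10 (SE, adjusted p = 0.966 with limma), which lay between 0.0021 without Con 2 and 0.12 without Exe 5.

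**Figure D1:**
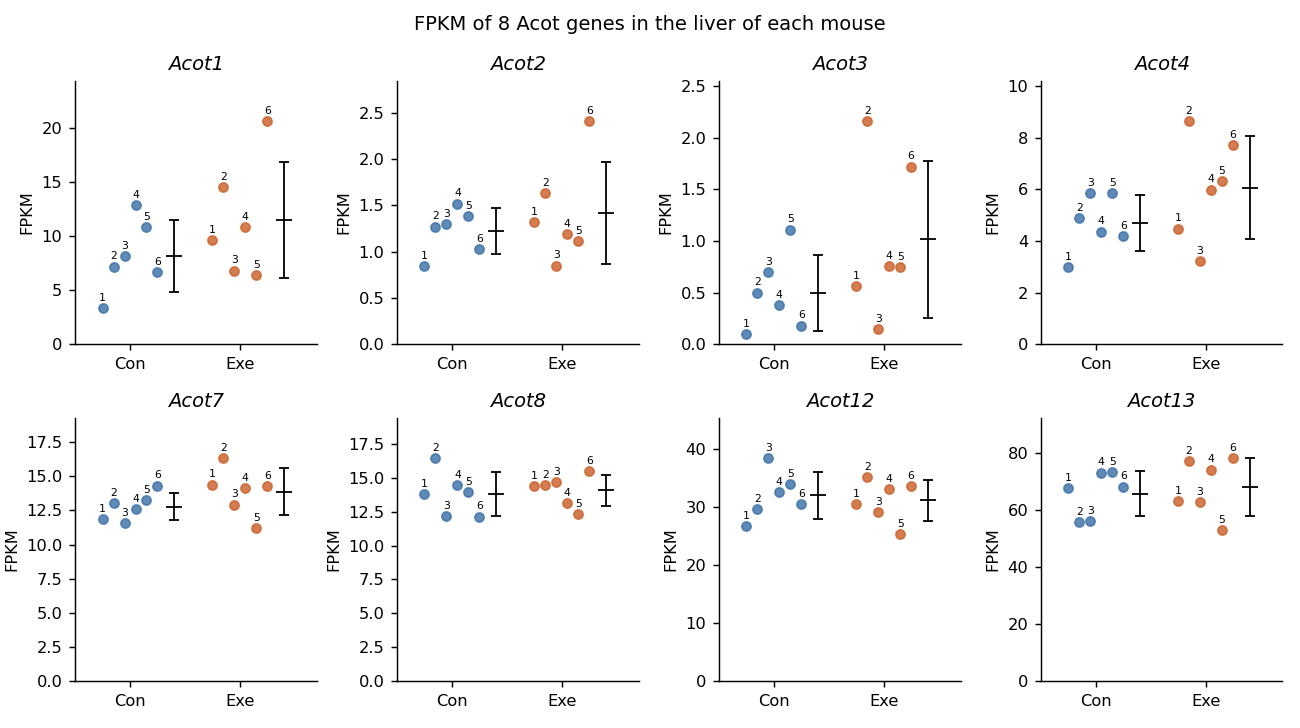
FPKM of the 8 genes (y axis from 0, a scale for each gene) in 6 Con and 6 Exe mice, with each mouse as a point that carries its number, and the mean ± SD of the group as a bar beside the points. The groups overlap for each gene, and Acot1 spans 3.36 to 20.59 FPKM whereas Acot8 spans 12.14 to 16.49.

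In the limma fit of log2(FPKM + 1), no Acot gene passed the thresholds of the study in the comparison of Exe with Con. These are an adjusted p up to 0.05 and a log2 fold change beyond 1 in either direction. Of the 10241 genes tested, 0.0% passed in this fit. The authors used another test, DESeq, and reported genes past these thresholds, Cyp4a10 and Cyp4a14 among them. At an unadjusted p under 0.05 limma called 6.21% of all genes, 4.27% as higher and 1.94% as lower in Exe, and 0 of the 7 members tested. With Exe 3 left out Acot4 was called (log2 fold change 0.42, adjusted p = 0.772 with limma), and with Exe 5 left out Acot7 (0.16, adjusted p = 0.543 with limma). Without Exe 2 the values were lower, 0.18 for Acot4 and 0.06 for Acot7. A log2 fold change above 0 was found for 6 of these 7 members, beside 57.5% of all genes, and the median was 0.10 over the members and 0.02 over all genes. The ranges of the groups were separate for 0 of the 8 members, and for 0.254% of all genes tested. The summed FPKM of the type I genes gave a log2 fold change of 0.40 ± 0.26 (SE, 95% interval from -0.15 to 0.96), close to that of Acot1, its largest part.

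**Figure D2:**
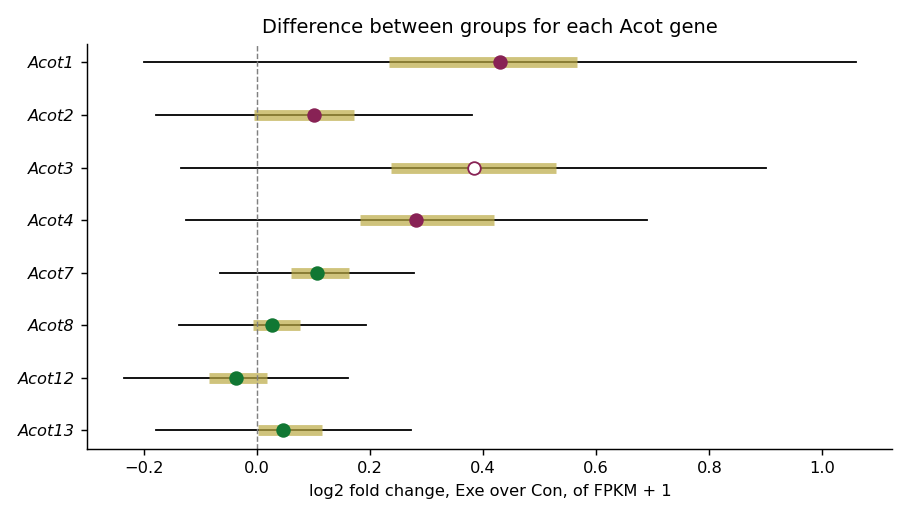
Log2 fold change (x axis, Exe over Con, of FPKM + 1) of each Acot gene, with the 95% limma interval as a thin line and the range over 12 fits that each left out a mouse as a thick band, type I genes in purple and type II genes in green. The open circle marks Acot3, taken from a fit without the filter. All intervals include 0, and those of the type I genes Acot1, Acot3 and Acot4 are the widest.

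The members differed in how much mice of the same group varied. The coefficient of variation within groups was 45.6% for Acot1, 32.2% for Acot2, 79.2% for Acot3 and 30.0% for Acot4. It was 10.6% for Acot7, 10.1% for Acot8, 12.1% for Acot12 and 13.5% for Acot13. Each of the type I genes varied more than over 93% of the genes tested (97.9%, 94.5%, 99.6% and 93.3% in the same order). Acot3, below the filter, was not itself one of the genes tested, and the ranking took no account of level. The type II genes stood near the middle, above 42.3%, 37.8%, 52.9% and 61.0% of the genes tested. Low FPKM adds counting error for Acot2 and Acot3, and its part in the spread was not tested. Mean levels over the 12 mice were 9.80 FPKM for Acot1 and 13.3 FPKM for Acot7. Con 1 was the lowest of the 12 mice for all 4 type I genes.

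**Figure D3:**
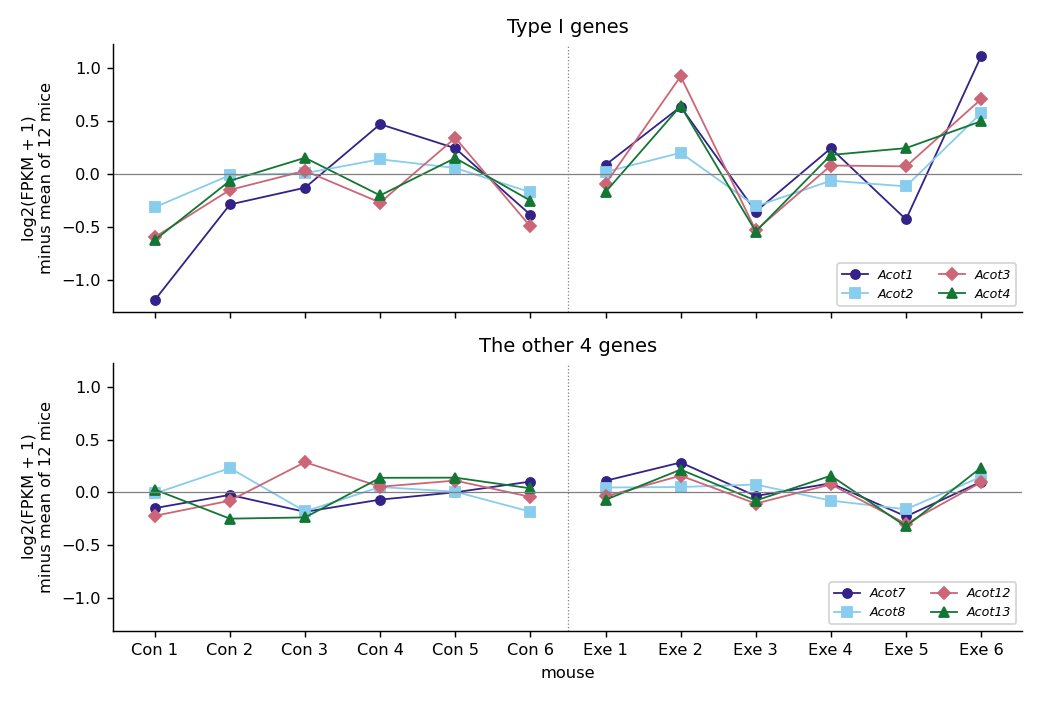
Deviation of log2(FPKM + 1) from the mean of the 12 mice (y axis, the same in both panels) for each mouse (x axis), with the type I genes above and the other 4 genes below. Lines join the genes within a group for legibility and imply no order of mice. The type I genes are low together in Con 1, Con 6 and Exe 3 and high together in Exe 2 and Exe 6, and the lower panel spans a much narrower range.

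The type I genes rose and fell together. Over 12 mice, Pearson's r of log2(FPKM + 1) was 0.905 for Acot1 with Acot2 (Spearman's rho 0.918) and 0.949 for Acot3 with Acot4 (rho 0.944). Of 28 pairs of members, 6 had an adjusted p under 0.05 in a permutation test of r, and these were the 6 pairs within type I, with r from 0.734 to 0.949. By rho 7 pairs passed, 4 of them within type I and 3 between the families. The latter were Acot1 with Acot12 (rho 0.771), Acot1 with Acot13 (0.753) and Acot2 with Acot12 (0.734). Within type I, Acot1 with Acot4 (rho 0.588) and Acot2 with Acot4 (0.636) did not pass by rho. Over the 16 pairs between the families r was from 0.011 to 0.652, with a median of 0.456. Among all pairs of the genes tested, 0.983% had an r of at least 0.734. For Acot1 with Acot2 the permutation p was 7e-05 (adjusted p = 0.00098), and for Acot3 with Acot4 it was 1e-05, the smallest that the permutations can give (adjusted p = 0.00028).

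Inside the groups r of the type I pairs was from 0.653 to 0.960 over the 6 Con mice and from 0.695 to 0.955 over the 6 Exe mice. At an adjusted p under 0.05 in exact permutation tests, 1 of these 6 pairs passed within Con (Acot1 with Acot2) and 2 within Exe (Acot1 with Acot2, and Acot3 with Acot4). Pairs between the families overlapped these values, with r from -0.286 to 0.859 in Con and from -0.026 to 0.880 in Exe. The highest were Acot4 with Acot12 in Con (adjusted p = 0.35, exact permutation test) and Acot1 with Acot13 in Exe (adjusted p = 0.131, exact permutation test). The 2 mice farthest from the median of the first gene of a pair were then left out. Acot1 with Acot2 was at r = 0.830 (without Con 1 and Exe 6) and Acot3 with Acot4 at r = 0.914 (without Exe 2 and Exe 6). Both were still past an adjusted p of 0.05 by permutation. The other 4 type I pairs were at r from 0.495 to 0.707 and no longer passed among the 10 mice other than Con 1 and Exe 6. Shared reads can add to the correlation between close copies, and their part was not tested. The pair with the highest r, Acot3 and Acot4, shares no stretch of 150 bases directly. Both overlap 4732463B04Rik, by 312 exon bases for Acot3 and 615 for Acot4. With Gm49366 the overlap was 396 exon bases for Acot3 but 33 for Acot4, less than the length of a read.

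Among the type II genes, 0 of 6 pairs passed over the 12 mice (r from -0.01 to 0.675). Over the Con mice r was between -0.40 and 0.353, and over the Exe mice between 0.597 and 0.978. Acot12 with Acot13 had r = 0.978 in Exe (adjusted p = 0.0486, exact permutation test) and r = -0.20 in Con. Acot7 with Acot12 had r = 0.941 in Exe (adjusted p = 0.0486, exact permutation test) and r = -0.22 in Con. Whether the correlations differ between the groups was not tested. Exe 5 was the lowest of all mice for Acot7, Acot12 and Acot13. After the 2 mice farthest from the median were left out of the 12, r was -0.07 for Acot7 with Acot12 (without Exe 2 and Exe 5) and 0.704 for Acot12 with Acot13 (without Con 3 and Exe 5). Exe 5 also had the highest sum over the acute-phase genes, 48524 FPKM, where the lowest sum was 11447 FPKM in Exe and the Con mice lay between 11152 and 46283 FPKM, with 12 of 12 genes of that list at a mean of at least 1 FPKM, and the part of this in the low values was not tested.

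**Figure D4:**
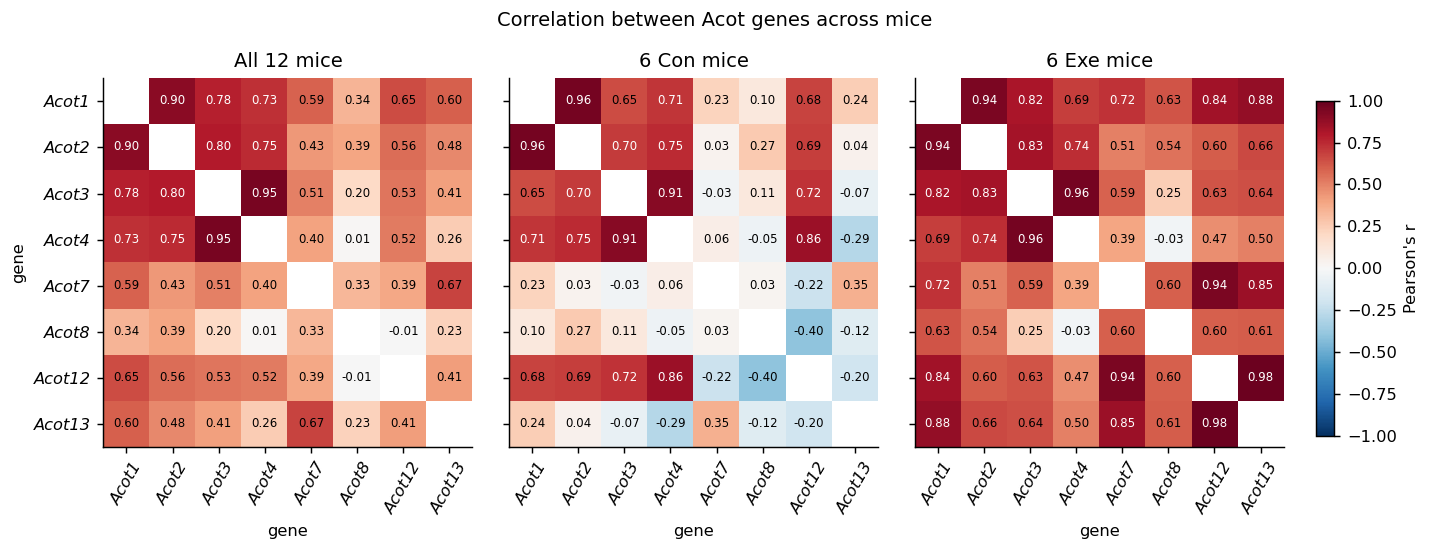
Pearson's r of log2(FPKM + 1) between each pair of the 8 genes (both axes), over all 12 mice, the 6 Con mice and the 6 Exe mice, with the value printed in each cell and red for positive r. The block of type I genes at the upper left is red in each panel, from 0.653 to 0.960 in Con and from 0.695 to 0.955 in Exe, whereas the block of the other 4 genes is pale in Con and red in Exe. Cells between the families run from -0.286 to 0.859 in Con and from -0.026 to 0.880 in Exe.

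Cyp4a10 and Cyp4a14, omega-hydroxylases of fatty acids and classical PPARA targets, were the reference for the type I genes. Cyp4a14 was 3.54, 12.73, 17.91, 22.15, 38.81 and 11.01 FPKM in Con 1 to Con 6 and 43.03, 289.52, 43.94, 69.00, 29.31 and 73.03 FPKM in Exe 1 to Exe 6. Only Exe 5 fell inside the Con range. The log2 fold change of Cyp4a14 was 2.13 ± 0.55 (SE) with an adjusted p of 0.657 with limma, and that of Cyp4a10 was 1.17 ± 0.29 (adjusted p = 0.581). The authors, who used DESeq, reported both genes as upregulated in RNA, and both as upregulated in protein. Ppara itself was at 30.5 ± 4.17 FPKM in Con and 29.5 ± 5.78 in Exe (SD, n = 6, adjusted p = 0.966 with limma).

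Mouse by mouse, the type I genes and Cyp4a14 were related but not in step. Of 8 relations with Cyp4a14 over 12 mice, 4 had an adjusted p under 0.05 by permutation: Acot1 (r = 0.768, rho = 0.711), Acot3 (r = 0.798, rho = 0.713), Acot4 (r = 0.730, rho = 0.643) and Acot7 (r = 0.672, rho = 0.510). Their adjusted p-values by permutation were 0.0181, 0.0135, 0.0181 and 0.033 for r, and by rho Acot1 and Acot3 passed. Within Con, r was 0.933 for Acot1, 0.891 for Acot2, 0.858 for Acot3 and 0.862 for Acot4, and within Exe it was 0.643, 0.460, 0.767 and 0.633. For Acot7, Acot8, Acot12 and Acot13, r was 0.244, 0.037, 0.748 and 0.195 within Con. Within Exe these type II genes were at 0.854, 0.370, 0.818 and 0.767, so high values there were not particular to type I. In either group 0 of 8 relations were past an adjusted p of 0.05. Without the 2 mice farthest from the median of the Acot gene, the 4 relations no longer passed among 10 mice (r from 0.362 to 0.663). Acot12 then did (r = 0.806, adjusted p = 0.0375 by permutation). The 10 mice differed between genes, so these values are not from the same mice. Exe 2, the highest for Cyp4a14, was left out for Acot3, Acot4 and Acot7 but kept for Acot1 and Acot12. Exe 2 held the highest Cyp4a14, Acot3, Acot4 and Acot7, but Exe 6, with the highest Acot1 and Acot2, had 73.03 FPKM of Cyp4a14 against 289.52 in Exe 2.

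To find the genes most like each member, log2(FPKM + 1) was taken as the deviation from the group mean and correlated over 12 mice with each of 10240 other genes, as a ranking without a test. The genes most like Acot1 were Lrrc58 (r = 0.939), Acsl1 (r = 0.935) and Aldh3a2 (r = 0.922). Acsl1 is the main long-chain acyl-CoA synthetase of the liver, which makes the substrate that thioesterases split, and Aldh3a2 oxidises fatty aldehydes. Acsl1 ranged from 112.97 FPKM in Con 1 to 295.09 FPKM in Exe 6, the mice at both ends for Acot1 as well. Acot2 was closest to Lrrc58 (r = 0.934), Acot1 (r = 0.909) and Paqr9 (r = 0.899), and Acot2 ranked at place 5 among the genes most like Acot1.

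Genes close to Acot4 were Ptprg (r = 0.931) and Nras (r = 0.898). Acot8 was closest to Slc25a42 (r = 0.971, rho = 0.930), the carrier that brings CoA into mitochondria, followed by Plxnb2 (r = 0.856) and Chchd2 (r = 0.848). Slc25a42 was highest in Con 2, at 42.53 FPKM, and lowest in Con 6, at 23.57 FPKM, the same mice that were highest and lowest for Acot8. Acot12 was closest to Bbox1 (r = 0.943), the last enzyme of carnitine synthesis, then Deptor (r = 0.928), an inhibitor of mTOR, and Pcca (r = 0.917), a subunit of propionyl-CoA carboxylase. Acot13 was closest to Mrpl14 (r = 0.948), a protein of the mitochondrial ribosome, Fastk (r = 0.931) and Rnaseh2c (r = 0.928), and Acot7 to Vgll4 (r = 0.927), Fastkd3 (r = 0.885) and Hint2 (r = 0.883).

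The enzymes around the thioesterases were described as lists, with limma values from the same fit. The list named other thioesterases also holds Nudt7, Nudt8 and Nudt19, which cleave CoA itself, so its values are not those of thioesterases alone. It had 13 genes tested, 6 higher and 7 lower in Exe around a median of -0.01 (log2 fold change). Of the 13, 1 gene was at an unadjusted p under 0.05, beside 6.21% of all genes. This was Baat, which conjugates bile acids from their CoA esters (127.5 ± 8.41 to 139.7 ± 5.32 FPKM, SD, n = 6, log2 fold change 0.13, limma adjusted p = 0.793). Lypla1, a protein depalmitoylase, and Nudt7, which cleaves CoA in peroxisomes, came next by p in that list, at log2 fold changes of 0.07 and -0.13. Of the other copies of the chromosome 12 cluster, Acot5 was listed at 0 in 11 of 12 mice and Acot6 lay between 0.18 and 1.01 FPKM, within the range of Acot3. Acot9 and Acot11, further type II enzymes, were at 2.20 and 1.97 FPKM in Con and 2.13 and 1.68 FPKM in Exe.

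The acyl-CoA synthetases, which make what thioesterases split, had 16 genes tested, 12 higher and 4 lower (57.5% of all genes were higher), with a median of 0.13 that was 0.03 without Con 1, 0.05 without the filter and 0.08 after quantile normalization. At an unadjusted p under 0.05 limma called 3 of them, beside 6.21% of all genes: Acss2, the cytosolic acetyl-CoA synthetase (log2 fold change 0.29), and Acsm1 (0.13) were higher and Slc27a1, a fatty acid transport protein, was lower (-0.31). The list for CoA synthesis, transport and breakdown had 13 genes tested, 8 higher and 5 lower, with a median of 0.01. There, 4 genes were called at an unadjusted p under 0.05 (4.27% of all genes as higher, 1.94% as lower), of which Vnn3 (0.32) and Pank4 (0.17) were higher, and Vnn1, a pantetheinase (-0.44), and Slc5a6, the transporter of pantothenate and biotin (-0.41), were lower. Among genes of acyl-CoA binding and transfer, 15 were tested, 9 higher and 6 lower, with a median of 0.01.

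In that list 1 gene of 15 was at an unadjusted p under 0.05, near the share of 6.21% over all genes. It was Crot, the peroxisomal carnitine octanoyltransferase, at 243.3 ± 37.2 FPKM in Con and 174.1 ± 45.2 in Exe (SD, n = 6, log2 fold change -0.51, limma adjusted p = 0.789). Acbd5 (-0.14) and Slc22a5 (-0.24) came next by p in the list. Crot moves medium-chain acyl groups from CoA to carnitine in the peroxisome, where ACOT3, ACOT4 and ACOT8 are found as well. The log2 fold changes of these 3 thioesterase genes were 0.38, 0.28 and 0.03. In the list of PPARA and its reference targets, 18 genes were tested, 6 higher and 12 lower, with a median of -0.04 (0.02 without Exe 3). Of these, Cyp4a10, Cyp4a14 and Vnn1 were at an unadjusted p under 0.05, beside 6.21% of all genes. In these 5 lists 0 genes had an adjusted p under 0.05 with limma.

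**Figure D5:**
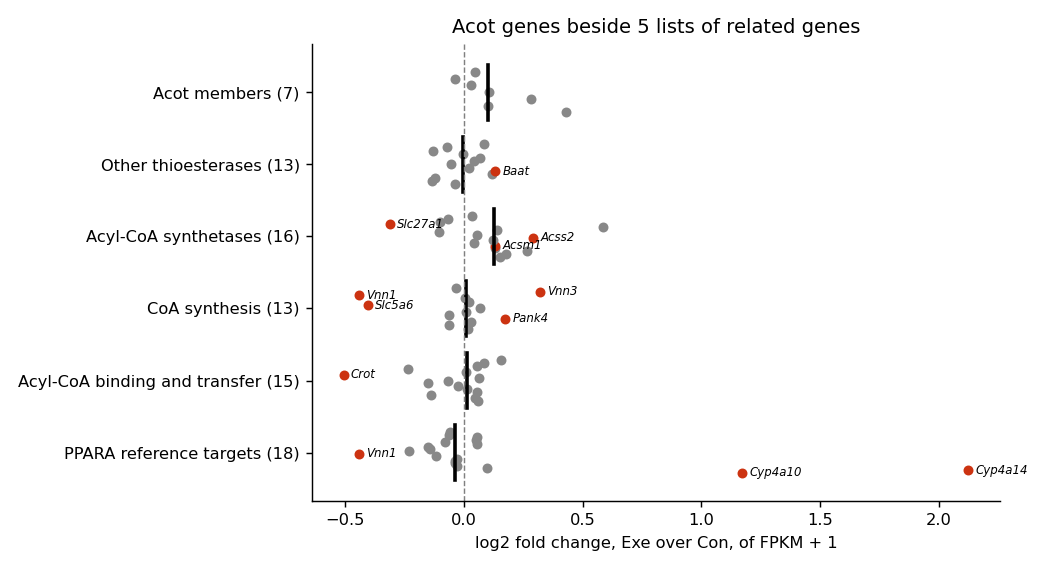
Log2 fold change (x axis, Exe over Con, of FPKM + 1) of each tested gene of the Acot members and of 5 lists (y axis, number of genes in parentheses), with red points for an unadjusted limma p under 0.05 and a black line at the median. Cyp4a14 at 2.13 and Cyp4a10 at 1.17 lie apart from the rest, and the Acot members lie between -0.04 and 0.43.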

How the data were processed

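RNA of 12 mouse livers was sequenced by the authors as paired reads of 150 bases. After quality filtering they used HISAT and the GRCm39 genome for alignment, and the values they deposited are FPKM of 16821 genes with 2 decimals. The submitters' processing notes also name Bowtie2 and mm10, without a role. The tool that made the FPKM, its gene models and its handling of reads that match several genes are not given in the sources used here. No counts were used here, so tests that need counts were not run, the depth in reads is unknown and the spread between mice is the only error given.

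Genes with at least 1 FPKM in at least 6 mice (10241) were analysed as log2(FPKM + 1) in R 4.3.3 with limma 3.58.1 (lmFit, eBayes with a trend, group as the only term, Benjamini-Hochberg adjustment over all genes tested). Fold changes on this scale are understated for low genes. The fit was tested on simulated data. Single genes were compared by exact two-sided permutation of 924 splits, and correlations over 12 mice by 100000 permutations. The rest was done in Python 3.11.15 (biopython 1.88, matplotlib 3.10.9, scipy 1.17.1, pandas 2.3.3, numpy 2.4.6). Sequences came from GENCODE M21 transcripts, aligned with MAFFT 7.526, and from RefSeq promoters. Those builds differ from that of the files, so they served for sequences and gene order only. Relative depth was taken from low FPKM that were whole multiples of a step within 8%.

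The members and the gene lists were chosen with earlier results of these data known. Named are the members, Cyp4a10, Cyp4a14 and Ppara, the 3 genes of each list with the smallest limma p, the 3 genes most like each member that passed the filter (1 of those for Acot4 is not reported here), and the top gene of a marker list with a mouse apart. Pank4, Acot5, Acot6, Acot9 and Acot11 were named after their values were seen, as was D630003M21Rik. Groups came from the sample titles. That the mice are separate animals follows from the study's methods. Alternatives were quantile normalization, FPKM rescaled to 1000000 per mouse, no filter, a filter at 5 FPKM, a pseudocount of 0.1, robust moderation, a replicate block, fits without each mouse, and a fit without Con 1 and Exe 5.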

Additional observations from a re-analysis of the deposited data

Results flagged for a closer look

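Dixon's test for the mouse farthest from its group was run on 50 sets of 6 mice (the members, Cyp4a10, Cyp4a14, Ppara and 14 marker lists, in each group), and 7 were past the critical value of 0.625. Chance flags about 1 in 20 groups. No set of a member was among them, the closest being Acot2 in Exe 6 (ratio 0.5).

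Cyp4a14 was at 289.52 FPKM in Exe 2, with the next mouse of the group at 73.03, and Exe 2 was also the highest mouse for Acot3, Acot4 and Acot7. Ppara was at 18.11 FPKM in Exe 3, with the next mouse at 29.50, and Exe 3 was the lowest Exe mouse for Acot2, Acot3 and Acot4. Con 1, the lowest mouse for all 4 type I genes, had 27.56 FPKM of Ppara, while the lowest in Con was 24.20 in Con 6. A relation of Ppara to the Acot genes was not tested.

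Of the marker lists, the acute-phase genes (12 of 12 at a mean of at least 1 FPKM, Hp the most abundant) summed to 48523.8 FPKM in Exe 5. In the same mouse the bile duct markers (4 of 6, Spp1 the most abundant) summed to 76.77 FPKM and the pancreatic acinar markers (2 of 8, Cela1 the most abundant) to 30.38 FPKM. Exe 5 was the lowest mouse for Acot7, Acot12 and Acot13. The skeletal and heart muscle markers (0 of 7, Tnnt2 the most abundant) summed to 2.85 FPKM in Exe 2, and the stellate cell and fibroblast markers (7 of 7, Dcn the most abundant) to 48.29 FPKM in Con 5. The part of these in the values of the Acot genes was not tested.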

How the results depend on the processing

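Of 296 recomputed values other than list medians, 253 had the same direction and call (for counts, a value within 1.5 times). The medians of the 5 lists were recomputed 100 times in all and had the opposite sign in 24, among other thioesterases (-0.0297 to 0.0313), CoA synthesis (-0.0298 to 0.0463), binding and transfer (-0.0233 to 0.0476) and PPARA targets (-0.0935 to 0.0155), while the synthetases stayed between 0.0273 and 0.165. No alternative brought an Acot gene to an adjusted p of 0.05 (limma, or exact permutation for Acot3, where the smallest p was 0.0606). Small fold changes changed sign: Acot2 to -0.0040 without Exe 6 (range over single mice left out -0.0040 to 0.172), Acot8 to -0.0054 without Con 3 and to -0.0060 without Con 6 (range -0.0060 to 0.0765), and Acot12 to 0.0167 without Con 3, to 0.0189 without Exe 5 (range -0.0848 to 0.0189) and to 4.97e-06 after rescaling to an equal FPKM sum. The genes at an unadjusted p under 0.05 numbered 636, and between 418 (without Exe 2) and 910 (without Exe 5) with a mouse left out. At an adjusted p of 0.05 limma called 0 genes, and 1 without the filter, D630003M21Rik, which stayed under a log2 fold change of 1. Replicate numbers did not pair the mice: same-numbered mice correlated at between -0.478 and 0.165 over their deviations, and 1 of 6 Con mice correlated best with its own number. The replicate block gave 567 genes at an unadjusted p under 0.05 and changed no call for an Acot gene. Of the 28 pair correlations 6 passed, against 1 within Con, 4 within Exe and 2 without the 2 mice farthest from the median. Of the 8 relations with Cyp4a14, 4 passed, against 0 within Con, 0 within Exe, 1 without the 2 mice farthest from the median and 2 by Spearman's rho. The 2 mice left out were not the same for every pair or relation. Groups of 6 limit these tests, as does the smaller number of mice when some are left out. Depth in reads is unknown, which limits Acot2 and Acot3 most.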
